A study of Schizosaccharomyces pombe with 12 samples.

Results

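The transcripts of 10 mitotic control genes of fission yeast, *Schizosaccharomyces pombe*, were examined: *cdc2*, *cdc13*, *cdc25*, *wee1*, *plo1*, *slp1*, *cut1*, *cut2*, *fkh2* and *ark1*. They were found by their gene symbols among the 4880 *S. pombe* probe sets of the Affymetrix Yeast Genome 2.0 array, and each of the 10 had 1 probe set. Expression had been measured on 12 arrays, 3 for each of 4 groups, which were wild-type and *set3Δ* cultures given either Latrunculin A (LatA) or DMSO. LatA binds actin monomers and prevents their assembly into filaments, and DMSO is its solvent. All strains carried *ura4-D18*, *leu1-32* and *ade6-216*, and in the *set3Δ* strain the *set3* gene was in addition replaced (*set3::KanMX*), which removes a SET domain protein of a histone deacetylase complex. Cells were grown in YES medium and treated for 3 hours. The sample labels give the LatA dose as 0.5 mM and the study's text gives 0.5 µM. The labels call the 3 arrays of a group biological replicates. The study's strain list holds a single *set3Δ* strain with just these markers, of mating type h+, and a single wild-type strain with them, of mating type h-. That list does not tie the strains to the arrays, so whether the *set3Δ* cultures came from more than a single isolate is not stated.

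These genes encode the core of the mitotic switch. The kinase Cdc2p, bound to its B-type cyclin Cdc13p, drives entry into mitosis; the kinase Wee1p holds it inactive by phosphorylating a tyrosine, and the phosphatase Cdc25p removes that phosphate. The polo kinase Plo1p promotes mitotic entry, spindle formation and septation, and the aurora kinase Ark1p acts in chromosome attachment and segregation. Slp1p, the fission yeast Cdc20, directs the anaphase-promoting complex (APC/C) to the securin Cut2p and to Cdc13p, and the destruction of Cut2p frees the separase Cut1p, which cleaves cohesin. Fkh2p is a forkhead transcription factor that acts on genes expressed in mitosis. Much of this control lies in phosphorylation and protein destruction, which an array of transcripts does not measure.

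The deposited values are log2 intensities from which the median of each probe set over the 12 arrays has been taken, so that a value of 0 is that median. They show how a transcript differed between arrays, but not how abundant it was. A difference was counted as significant at an adjusted p below 0.05 in limma (Benjamini-Hochberg over the 4880 probe sets), and a gene was called differentially expressed when the fold change was above 1.5 as well. In wild type the *set3* transcript had values of 1.97 to 2.31, and in *set3Δ* of -2.59 to -1.97, as the labels require. The median SD of a probe set within a group was from 0.0708 to 0.114. The level of the core environmental stress response (CESR), taken as the mean of 136 induced genes minus the mean of 104 repressed genes, ranged from -1.52 to -0.74 in wild type with DMSO, from 0.24 to 0.45 in wild type with LatA, from -1.06 to 0.01 in *set3Δ* with DMSO and from 0.45 to 0.70 in *set3Δ* with LatA. None of the 10 mitotic genes is a CESR gene, and whether the stress level had a part in the differences given here was not tested. The M-cell pheromone gene *mfm2* was lower in *set3Δ* with DMSO (log2 difference -4.62, standard error 0.21) and with LatA (-5.58, standard error 0.14). With DMSO it was the only 1 of 7 M-cell probe sets called (0.123% of all probe sets), and 2 of the 7 had a positive difference. None of 3 P-cell genes was called with DMSO. With LatA 3 of the 7 were called as lower (2.15% of all probe sets), and so was 1 of the 3 P-cell genes. The strains thus also differed in some mating-type transcripts, and the effect of this on the mitotic genes cannot be told apart from that of *set3*.

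**Figure D1:**
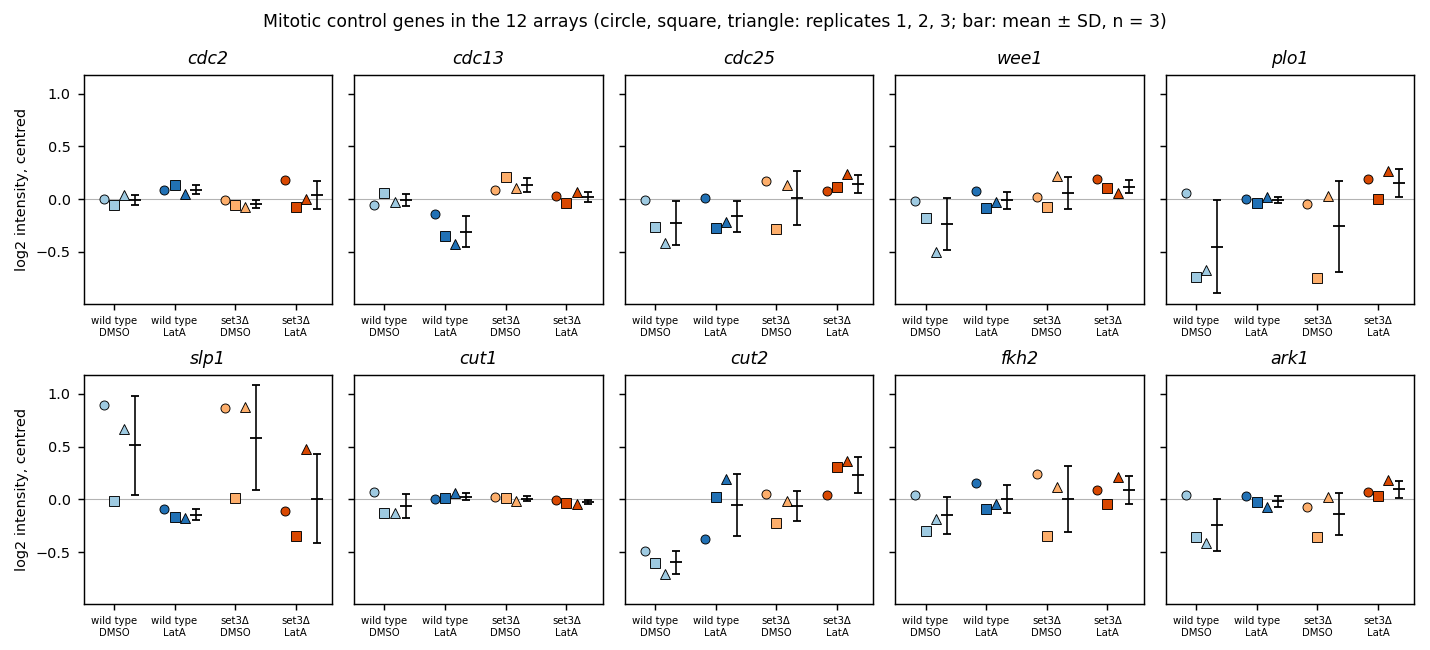
Centred log2 intensity of the 10 genes (vertical axis) in the 4 groups (horizontal axis), with circles, squares and triangles for replicates 1, 2 and 3 and a bar for the mean ± SD of 3 arrays. *cdc2* and *cut1* stay close to 0, *cut2* is lowest in wild type with DMSO, *cdc13* is lowest in wild type with LatA, and *plo1* and *slp1* are widely spread among the DMSO arrays.

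In wild-type cells, LatA was accompanied by a lower *cdc13* and a higher *cut2* transcript, both changes being smaller than 1.5-fold. None of the 10 genes was called differentially expressed, against 14.5% of all probe sets. At an adjusted p below 0.05 without a limit on fold change, 2 of the 10 passed, against 43% of all probe sets. The log2 differences of the 10 ran from -0.66 for *slp1* to 0.54 for *cut2*, with a median of 0.13 (-0.03 over all probe sets), and 8 were positive (44.9% of all probe sets). The arrays average over whole cultures, so that fewer cells in a phase of the cycle and less RNA per cell cannot be told apart.

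The cyclin transcript *cdc13* lay at -0.05, 0.06 and -0.03 in the wild-type arrays with DMSO and at -0.14, -0.35 and -0.43 with LatA. The groups did not overlap. The log2 difference was -0.30 (standard error 0.09, 95% confidence interval -0.51 to -0.09, adjusted p = 0.0331 from limma, 3 arrays per group), which is 1.23-fold lower. When 1 array was left out the adjusted p of *cdc13* was from 0.0213 to 0.107, and it stayed below 0.05 in 2 of 6 such fits. In *set3Δ* the *cdc13* values were 0.09, 0.21 and 0.10 with DMSO and 0.03, -0.04 and 0.07 with LatA, again without overlap, but the difference of -0.11 (standard error 0.06, adjusted p = 0.194) did not pass. Averaged over the strains in a fit of all 12 arrays, *cdc13* fell with LatA by 0.21 on the log2 scale (standard error 0.05, adjusted p = 0.00686 from limma). This average response of *cdc13* remained significant in each of 12 fits that left out 1 array. Its partner, the kinase *cdc2*, had log2 differences of 0.10 in wild type (standard error 0.05) and 0.08 in *set3Δ* (standard error 0.08), neither of them significant. On each array, *cdc13* minus *cdc2* was -0.05, 0.12 and -0.06 in wild type with DMSO and -0.23, -0.48 and -0.48 with LatA. The corresponding values in *set3Δ* were 0.10, 0.26 and 0.18 with DMSO and -0.16, 0.04 and 0.06 with LatA. In both strains every LatA array lay below every DMSO array in this difference between centred values. How often pairs of other probe sets would do so was not computed.

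The securin transcript *cut2* lay at -0.49, -0.60 and -0.70 in wild type with DMSO, and at -0.38, 0.02 and 0.20 with LatA. All 3 LatA arrays were above the DMSO arrays, replicate 1 by the least. The log2 difference was 0.54 (standard error 0.15, 95% confidence interval 0.18 to 0.91, adjusted p = 0.0305 from limma), or 1.46-fold, just below the limit of 1.5. Without wild-type LatA replicate 1 the difference of *cut2* was 0.71 and passed both limits (adjusted p = 0.0191). Over the 6 fits that left out 1 array its adjusted p ran from 0.0191 to 0.0968, and it stayed below 0.05 in only 2 of them. In *set3Δ*, *cut2* lay at 0.05, -0.23 and -0.02 with DMSO and at 0.04, 0.31 and 0.36 with LatA, where the highest DMSO array lay just above the lowest LatA array. The difference there was 0.30 (standard error 0.11, adjusted p = 0.118). The mean response of *cut2* over both strains was 0.42 (standard error 0.10, adjusted p = 0.00602 from limma), or 1.34-fold, and it was significant in each of the 12 fits without 1 array. The separase transcript *cut1*, whose product the securin holds in check, was the least variable of the 10 genes, with a range of 0.20 over all arrays. Its LatA difference was 0.09 in wild type (standard error 0.07) and -0.03 in *set3Δ* (standard error 0.04). Accordingly *cut2* minus *cut1* was lowest in wild type with DMSO, at -0.56, -0.47 and -0.57, and highest in *set3Δ* with LatA, at 0.04, 0.34 and 0.40. Those groups differ in both strain and treatment, so their separation cannot be assigned to either. Wild type with LatA (-0.38 to 0.14) and *set3Δ* with DMSO (-0.24 to 0.03) overlapped.

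The largest difference among the 10 was that of *slp1*, the activator of the APC/C, but its arrays were also the most scattered. With DMSO the *slp1* values were 0.89, -0.01 and 0.67 in wild type and 0.87, 0.01 and 0.87 in *set3Δ*, so that replicate 2 stood well below the others in both strains. With LatA they were -0.09, -0.17 and -0.18 in wild type and -0.11, -0.35 and 0.48 in *set3Δ*. In wild type the groups did not overlap, and in *set3Δ* LatA replicate 3 lay between the DMSO arrays. The log2 difference was -0.66 in wild type (standard error 0.22, 95% confidence interval -1.20 to -0.12, adjusted p = 0.0554 from limma) and -0.58 in *set3Δ* (standard error 0.31, 95% confidence interval -1.34 to 0.18, adjusted p = 0.224). Averaged over both strains, *slp1* fell by 0.62 (standard error 0.21, adjusted p = 0.0287 from limma), or 1.54-fold. It was the only 1 of the 10 genes called for this response, against 9% of all probe sets (4% called as lower and 5% as higher). The call was lost in 8 of 12 fits that left out 1 array, and over the 12 the adjusted p ran from 0.00796 to 0.0691. It was lost without wild-type DMSO replicate 1 or 3, wild-type LatA replicate 2 or 3, *set3Δ* DMSO replicate 1 or 3, or *set3Δ* LatA replicate 1 or 2. Without *set3Δ* LatA replicate 3 the mean difference of *slp1* was -0.74 and remained significant (adjusted p = 0.0145).

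Counted at an adjusted p below 0.05 alone, 5 of the 10 genes changed in the mean LatA response, against 55.4% of all probe sets. These were *cdc13* and *slp1*, which were lower, and *cut2*, *plo1* and *ark1*, which were higher. The mean difference was 0.43 for *plo1* (standard error 0.16, adjusted p = 0.0468 from limma) and 0.23 for *ark1* (standard error 0.09, adjusted p = 0.0478). Both of these adjusted p values were near the threshold of 0.05, and neither fold change was above 1.5. Over the fits without 1 array, 3 of 12 kept *plo1* and 2 of 12 kept *ark1* below that threshold. Leaving out any 1 of 9 arrays ended the significance of *plo1*, and any 1 of 10 arrays that of *ark1*.

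The polo kinase transcript *plo1* differed more between DMSO arrays of a strain than between treatments. It lay at 0.05, -0.74 and -0.67 in wild type with DMSO and at -0.05, -0.75 and 0.02 in *set3Δ* with DMSO. With LatA the *plo1* values were -0.0035, -0.04 and 0.02 in wild type and 0.19, 0.0035 and 0.27 in *set3Δ*. The LatA difference in wild type was 0.44 (standard error 0.21, adjusted p = 0.129), and without wild-type DMSO replicate 1, the array that lay with the LatA arrays, it was 0.70 (adjusted p = 0.000774). Over all 6 fits without 1 array the adjusted p of *plo1* ran from 0.000774 to 0.321. The aurora kinase transcript *ark1* had a similar arrangement, with values of 0.04, -0.36 and -0.42 in wild type with DMSO and of -0.08, -0.36 and 0.02 in *set3Δ* with DMSO. All *ark1* values with LatA lay between -0.07 and 0.19. The differences of *ark1* were alike in the strains, 0.23 in wild type (standard error 0.13) and 0.23 in *set3Δ* (standard error 0.11), without passing in either.

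The opposing regulators of Cdc2p showed no significant LatA response. The *wee1* transcript, of the inhibitory kinase, had a difference of 0.22 in wild type (standard error 0.13, adjusted p = 0.197) and 0.06 in *set3Δ* (standard error 0.09, adjusted p = 0.633). For *cdc25*, of the activating phosphatase, the differences were 0.07 (standard error 0.13, adjusted p = 0.692) and 0.14 (standard error 0.13, adjusted p = 0.486). The 95% confidence intervals of both genes lay within a 1.5-fold change in both strains. On each array, *cdc25* minus *wee1* was 0.02, -0.08 and 0.08 in wild type with DMSO and -0.07, -0.19 and -0.19 with LatA, so that the lowest DMSO array lay just below the highest LatA array and the groups overlapped. In *set3Δ* it ranged from -0.21 to 0.15 with DMSO and from -0.11 to 0.17 with LatA, again with overlap. The forkhead gene *fkh2* had differences of 0.16 (standard error 0.11) and 0.08 (standard error 0.16), also within 1.5-fold by their intervals. In all, the interval lay within 1.5-fold for 7 of the 10 genes in wild type (65.3% of all probe sets) and for 8 of 10 in *set3Δ* (76.7%); *plo1* and *slp1* were the exceptions in both strains and *cut2* in wild type.

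In *set3Δ* taken alone, none of the 10 genes was called for the LatA response, against 3.61% of all probe sets, and none reached an adjusted p below 0.05 (12.4% of all probe sets). The share of 3.61% stands for 176 probe sets, a number that was 0 without *set3Δ* LatA replicate 1 or 2, 18 without *set3Δ* DMSO replicate 1, 107 without *set3Δ* LatA replicate 3, and between 120 and 218 without either of the other DMSO arrays. Only *cut2* had an unadjusted p below 0.05 (37% of all probe sets). The groups did not overlap for 2 of the 10, *cdc13* and *ark1*, against 46.7% of all probe sets. In wild type they did not overlap for *cdc2*, *cdc13*, *slp1* and *cut2*, 4 of 10 against 60.2%.

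**Figure D2:**
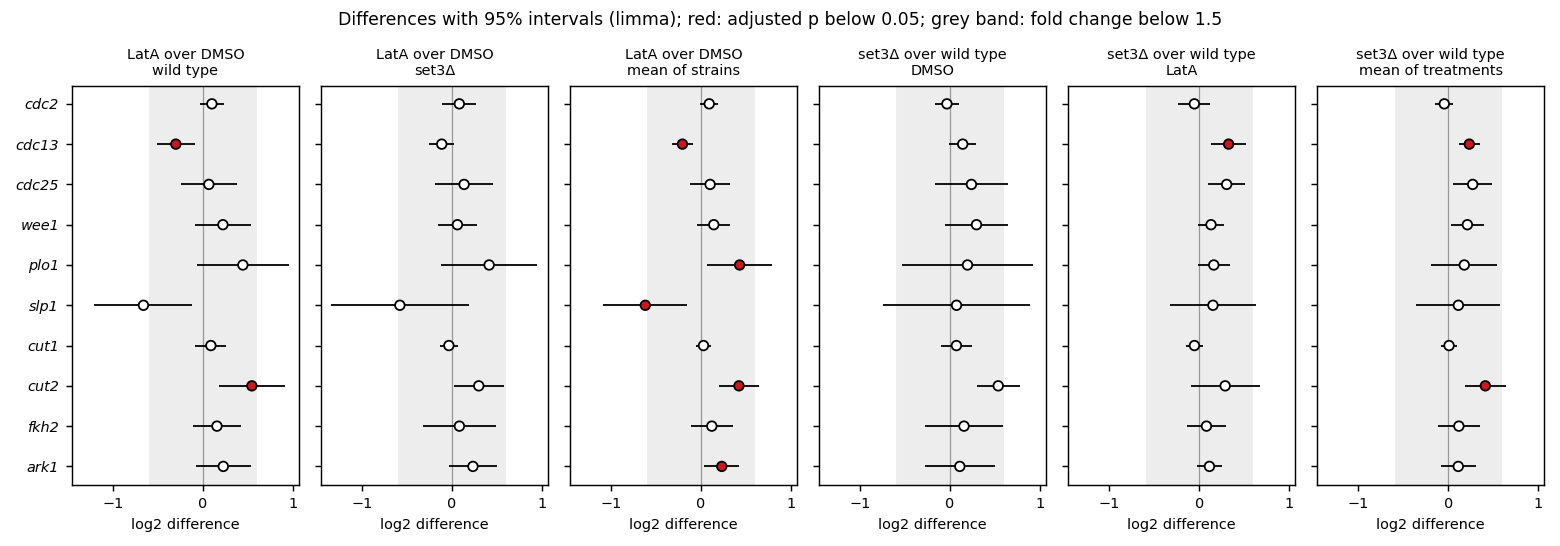
Log2 differences of the 10 genes (horizontal axis) with 95% confidence intervals from limma, for the LatA response of each strain and its mean, and for the strain difference in each treatment and its mean. Red points have an adjusted p below 0.05 and the grey band marks fold changes below 1.5; *cut2* and *cdc13* are red in both mean comparisons, and the widest intervals are those of *slp1* and *plo1*.

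Between the strains, most of the 10 transcripts lay slightly higher in *set3Δ*. Only *cdc13* and *cut2* were significantly higher when both treatments were averaged, a share no larger than that of all probe sets. With DMSO, 9 of the 10 differences were positive (47.3% over all probe sets) and the median was 0.15. This was not particular to the 10. Among the related lists described below, 15 of 16 genes of the mitotic wave and 18 of 24 other regulators of Cdc2p were positive with DMSO. The APC/C and spindle checkpoint list had 9 of 19 positive, and the cohesin list 4 of 10. With LatA 8 of 10 were positive (55.3%), with a median of 0.14. None of the 10 was called with DMSO or with LatA, against 0.123% and 3.16% of all probe sets. The 95% confidence interval lay within 1.5-fold for only 4 of the 10 with DMSO (74.1% of all probe sets). With LatA it did so for 8 of the 10 (88.4%). A change above 1.5-fold with DMSO is thus not excluded for *cdc25*, *wee1*, *plo1*, *slp1*, *cut2* and *fkh2*. At an adjusted p below 0.05 alone the count was 0 with DMSO (0.164% of all probe sets) and 1 with LatA (18.2%). In the mean over both treatments 2 of the 10 passed at an adjusted p below 0.05, against 22.2% of all probe sets, and none exceeded 1.5-fold, against 1.93% called.

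The mean strain difference of *cut2* was 0.41 (standard error 0.10, 95% confidence interval 0.18 to 0.64, adjusted p = 0.0193 from limma), or 1.33-fold. It remained significant in each of the 12 fits without 1 array, with an adjusted p of at most 0.0496. With DMSO alone, all 3 *set3Δ* arrays lay above all 3 wild-type arrays, by a mean of 0.53 (standard error 0.10, unadjusted p = 0.0016, adjusted p = 0.136). This was larger than 93.9% of all strain differences with DMSO in absolute size. With LatA the *cut2* groups overlapped and the difference was 0.29 (standard error 0.16, adjusted p = 0.248). For *cdc13* the larger of the differences was that with LatA: it was 0.14 with DMSO (standard error 0.06, adjusted p = 0.23) and 0.33 with LatA (standard error 0.08, adjusted p = 0.0387 from limma), or 1.25-fold, and the groups did not overlap in either treatment. Averaged over treatments *cdc13* was higher in *set3Δ* by 0.23 (standard error 0.05, adjusted p = 0.012), and this passed in each of the 12 fits without 1 array. With LatA alone *cdc13* passed in 1 of 6 such fits, with an adjusted p from 0.0197 to 0.125.

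The transcripts of *cdc25* and *wee1* were also placed higher in *set3Δ*, without passing. The mean strain difference was 0.27 for *cdc25* (standard error 0.10, adjusted p = 0.0751) and 0.21 for *wee1* (standard error 0.08, adjusted p = 0.0901). With LatA, *cdc25* lay at 0.0054, -0.28 and -0.22 in wild type and at 0.08, 0.12 and 0.23 in *set3Δ*. These groups did not overlap, and the difference was 0.31 (standard error 0.09, adjusted p = 0.0538). The differences of *cdc2* and *cut1* were close to 0 in both treatments, from -0.05 to 0.07, and their intervals lay within 1.5-fold. Groups did not overlap for *cdc13* and *cut2* with DMSO (2 of 10, against 29.5% of all probe sets) and for *cdc13*, *cdc25* and *cut1* with LatA (3 of 10, against 40.8%).

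No gene of the 10 was shown to respond differently to LatA in the 2 strains. The response of *set3Δ* minus that of wild type, fitted on all 12 arrays, passed for none of them (0.0615% of all probe sets were called), and none had an unadjusted p below 0.05 (20.2% of all probe sets). The largest were -0.25 for *cut2* (standard error 0.20, 95% confidence interval -0.70 to 0.21, adjusted p = 0.505) and 0.19 for *cdc13* (standard error 0.10, 95% confidence interval -0.04 to 0.42, adjusted p = 0.32). For *slp1* the interval, from -0.85 to 1.01, was wide enough to hold a difference of more than 1.5-fold either way, as was that of *plo1*, from -0.76 to 0.70. For 7 of the 10 genes it lay within 1.5-fold, against 68.3% of all probe sets.

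Genes around this core were described by the same rules. Of 24 other regulators of Cdc2p, its cyclins and their kinases, 4 were called with LatA (16.7%, against 14.5% of all probe sets). Lower were *cig2*, a B-type cyclin of the start of S phase (log2 difference -1.22, standard error 0.08), and *mik1*, a kinase that shares the target of Wee1p (-0.98, standard error 0.10). Higher were *mcs6*, the catalytic subunit of a kinase that activates Cdc2p (0.98, standard error 0.15), and *pyp3*, a phosphatase that acts on Cdc2p beside Cdc25p (0.68, standard error 0.07). The *mik1* values were 0.28, 0.13 and 0.34 with DMSO and -0.58, -0.88 and -0.73 with LatA in wild type. In *set3Δ*, *mcs6* (0.67), *pyp3* (0.61) and the cyclin gene *puc1* (0.60) were called as higher, 3 of 24 or 12.5% against 3.61% of all probe sets. This count was 0 without *set3Δ* LatA replicate 1 or 2, 1 without *set3Δ* DMSO replicate 1 or 2, and 5 without *set3Δ* LatA replicate 3. Though not called, *mik1* and *cig2* were lower on every *set3Δ* LatA array than on any *set3Δ* DMSO array. There *mik1* lay at 0.43, 0.21 and 0.13 with DMSO and at -1.28, -1.77 and -0.13 with LatA. The *cig2* values were 0.08, 0.16 and 0.16 with DMSO and -1.18, -1.04 and -0.08 with LatA. Both were called at an adjusted p below 0.1. In wild type *puc1* was also higher, by 0.48 (standard error 0.09, adjusted p = 0.00976 from limma), but below 1.5-fold.

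None of 19 genes of the APC/C and the spindle checkpoint was called with LatA in either strain. Of all probe sets 14.5% were called in wild type and 3.61% in *set3Δ*, shares that apply to the lists that follow as well. Of the 19 differences 13 were positive in wild type (44.9% of all probe sets) and 15 in *set3Δ* (46.3%), with medians of 0.15 and 0.23. The largest were those of the APC/C genes *apc2* (0.53, standard error 0.18, adjusted p = 0.0573) and *cut4* (0.42, standard error 0.10, adjusted p = 0.0185) in wild type, and of the checkpoint gene *mad3* in *set3Δ* (0.42, standard error 0.12, adjusted p = 0.0629). Of 10 genes of cohesin, the substrate of separase, and its regulators none was called. A negative difference was seen for 9 in wild type (55.1% of all probe sets) and 8 in *set3Δ* (53.7%). The cohesin subunit *psc3* was lower by 0.42 (standard error 0.06, adjusted p = 0.00486) in wild type and by 0.41 (adjusted p = 0.0244) in *set3Δ*. For the cleaved subunit *rad21* the differences were -0.37 (adjusted p = 0.05) and -0.61 (adjusted p = 0.0653). None of 15 genes of the chromosome passenger complex, the partner of Ark1p, and of the spindle was called; the largest wild-type difference was that of the spindle kinesin *cut7* (0.51, standard error 0.12, adjusted p = 0.0186).

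**Figure D3:**
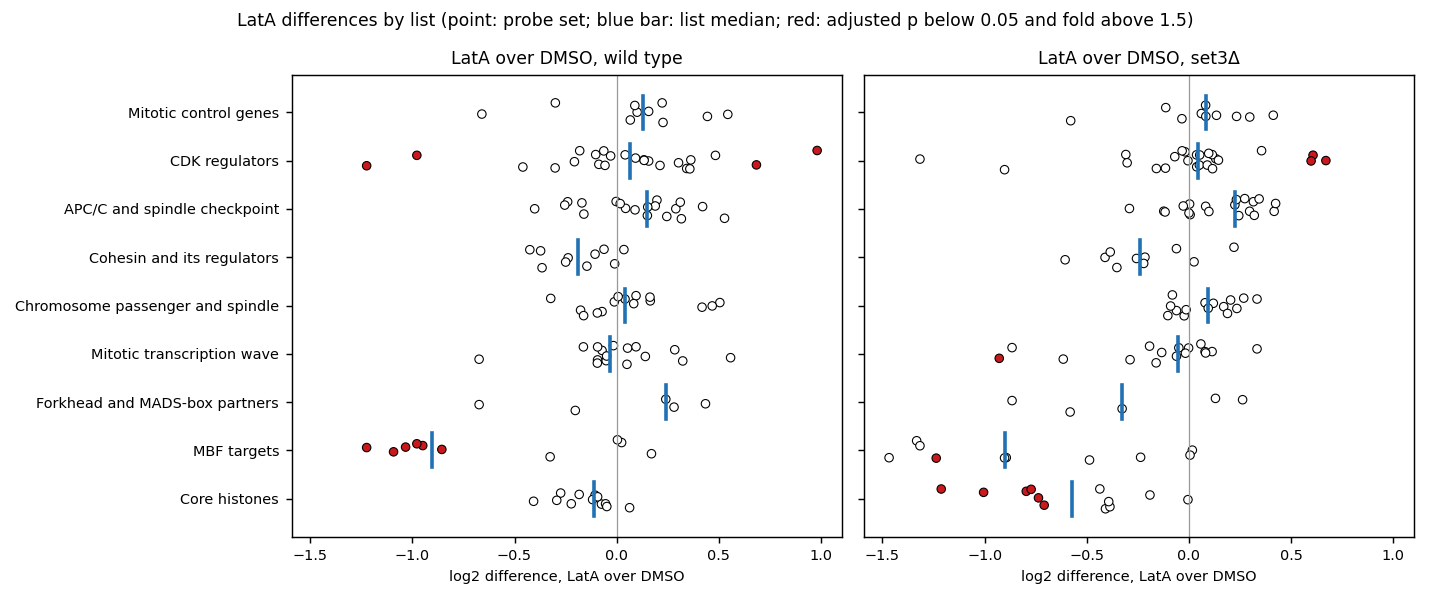
Log2 difference of LatA over DMSO (horizontal axis) for each probe set of the mitotic control genes and of 8 related lists, in wild type and in *set3Δ*, with the list median as a blue bar and called probe sets in red. The mitotic control genes lie around 0 with none called, while 6 of 10 targets of MBF are red in wild type and 1 of 10 in *set3Δ*. The median of the MBF targets is -0.90 in both strains.

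Lists of genes transcribed in mitosis and just after it were set beside the 10. Of 16 genes of the mitotic wave of transcription, none was called in wild type (median -0.03; 14.5% of all probe sets), and in *set3Δ* 1 was (3.61% of all probe sets), the kinesin gene *klp8* (-0.93, standard error 0.12, adjusted p = 0.0199). That call was lost without *set3Δ* DMSO replicate 1 or *set3Δ* LatA replicate 1 or 2. Of the forkhead and MADS-box factors listed with Fkh2p, none of 5 was called in either strain; *mbx1*, of a MADS-box factor, had differences of 0.43 (standard error 0.20, adjusted p = 0.128) in wild type and -0.58 (standard error 0.21, adjusted p = 0.11) in *set3Δ*. Of 10 targets of MBF, the factor of the start of S phase, 6 were called in wild type, all lower (7.3% of all probe sets were called as lower), with a median of -0.90 over the 10, among them *cdc22* (-1.09) and *cdt1* (-1.03) as well as *cig2* and *mik1*, which are also counted above. Of 12 probe sets of core histones, whose genes are so alike that signals may be shared, none was called in wild type and 6 were called as lower in *set3Δ* (1.64% of all probe sets), with *hhf1* at -1.21 and -1.01 on its 2 probe sets. None of the 6 histone calls was left without *set3Δ* DMSO replicate 1 or *set3Δ* LatA replicate 1 or 2.

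In *set3Δ* the count of MBF targets also depended on single arrays. It was 1 of 10 (*cdt2* at -1.24), and without *set3Δ* LatA replicate 3 it was 7 of 10. Without any other 1 of the *set3Δ* arrays it was 0. The median LatA difference of the 10 MBF targets in *set3Δ* was nevertheless -0.90, as in wild type. Of the 10 differences, 8 were negative in *set3Δ* and 7 in wild type (53.7% and 55.1% of all probe sets). Between the strains none of these 8 lists had a called gene with DMSO, and with LatA only core histones had, with 4 of 12 probe sets lower in *set3Δ* (2.15% of all probe sets), a count that was from 3 to 6 without 1 array, with 6 when replicate 3 with LatA of either strain was left out. No target of MBF was called there, and 3 were without *set3Δ* LatA replicate 3, when 1 of the other regulators of Cdc2p (*mik1*) and 1 gene of the mitotic wave (*klp8*) were called too. On that array *cig2* lay at -0.08 and *mik1* at -0.13, while on the other *set3Δ* arrays with LatA *cig2* lay at -1.18 and -1.04 and *mik1* at -1.28 and -1.77. The CESR level of the array, 0.45, was the lowest of its group but above the values with DMSO.

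Among the probe sets whose pattern over the 12 arrays was most like that of *slp1* were SPBC19G7.04, with a Pearson correlation of 0.941, and the replication licensing gene *cdc18* (0.916). The arrays share their 4 groups, so the correlations describe these arrays and were not tested. The SPBC19G7.04 transcript lay at 1.01, 0.05 and 0.73 in wild type with DMSO and at 0.79, -0.15 and 0.37 in *set3Δ* with DMSO. With LatA its values were -0.05, -0.24 and -0.42 in wild type and -0.32, -0.52 and 0.45 in *set3Δ*. As for *slp1*, DMSO replicate 2 was low in both strains and *set3Δ* LatA replicate 3 was high. Likewise *cdc18* was lower in DMSO replicate 2 than in the other DMSO arrays, at 0.06 in wild type and -0.06 in *set3Δ*, and it lay below these values in all LatA arrays except *set3Δ* replicate 3, at 0.27. Its wild-type difference was -0.95 (standard error 0.12, adjusted p = 0.00486).

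**Figure D4:**
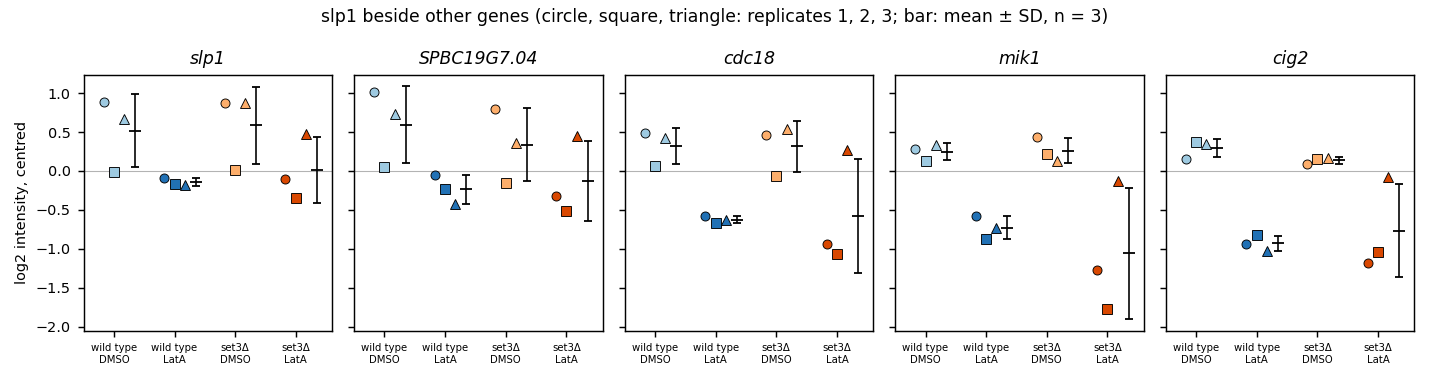
Centred log2 intensity of *slp1*, SPBC19G7.04, *cdc18*, *mik1* and *cig2* (vertical axis) by group (horizontal axis), with circles, squares and triangles for replicates 1, 2 and 3 and a bar for the mean ± SD of 3 arrays. The squares of *slp1* and SPBC19G7.04 lie near 0 with DMSO in both strains, and the triangle of *set3Δ* with LatA lies above the circle and the square for all 5 genes.

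For *cut2* the most similar probe sets over the 12 arrays were *vcx1* (0.966), *ksp1* (0.95) and the checkpoint kinase gene *mph1* (0.934). Their LatA differences in wild type were smaller than that of *cut2*, 0.20 for *vcx1*, 0.41 for *ksp1* and 0.15 for *mph1*.

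The spread between replicate arrays differed widely among the 10 genes. The pooled SD within groups was 0.06 for *cut1* and 0.08 for *cdc2*, below the median of 0.11 over all probe sets, and 0.31 for *plo1* and 0.40 for *slp1*, above 94.3% and 96.9% of all probe sets. In both strains 8 of the 10 genes had a larger SD with DMSO than with LatA, against 61.3% of all probe sets in wild type and 72.7% in *set3Δ*. The SD of *slp1* in wild type was 0.47 with DMSO and 0.05 with LatA, and that of *plo1* was 0.44 and 0.03. Replicate 2 with DMSO was low in both strains for *plo1*, *slp1*, *ark1* and *fkh2*, and wild-type DMSO replicate 3 was low for *plo1* and *ark1* but high for *slp1*.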

How the data were processed

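RNA had been hybridized to Affymetrix Yeast Genome 2.0 arrays. The authors normalized them with RMA in GeneSpring, and the deposited values are log2 intensities; the centring on medians was read from the values, and no annotation version is stated. Because levels are lost by the centring, dim probe sets could not be found, all were kept, and the number of arrays limits the precision. No genome coordinates are given. Of 4880 probe sets 3917 carried 1 gene name, 2865 from the platform table and 1052 from the study's supplementary workbook. Of the related lists, *apc13* and *dut1* were not matched by name.

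Linear models with moderated variances were fitted in limma 3.58.1 under R 4.3.3. Comparisons of 2 groups used their 6 arrays; the difference between the responses and the mean effects used all 12. The procedure was checked on simulated data with known changes. Members, lists and tests were chosen with earlier results of these data known. Named were the 10 members, *set3* and *mfm2*, up to 3 genes of each related list with the largest called changes (otherwise up to 2 of the largest), and the 3 probe sets most correlated with *slp1* and *cut2*, except that a withheld item and the list that depends on it are not reported here. The alternatives were a fit of all 12 arrays, the replicate number as a block, unmoderated variances, weighted arrays, a median centring of arrays, probe sets that can match several genes left out, other limits, and each array left out in turn. The counts of related lists under these alternatives were added after the data had been seen. Plots were made in Python 3.11.15 with matplotlib 3.10.9.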

Additional observations from a re-analysis of the deposited data

Results flagged for a closer look

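For *cut1*, every LatA array lay above the mean of the DMSO arrays in wild type and below it in *set3Δ*. The difference between the responses was -0.12 on the log2 scale (standard error 0.08, adjusted p = 0.374 in limma over all 12 arrays) and did not pass the test.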

How the results depend on the processing

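Of the 10 genes, none was called for the LatA response of *set3Δ*, for the strain difference with DMSO or for the difference between the responses under any alternative run. For the LatA response of wild type the count of 0 became 2 with array weights (*plo1* and *cut2*), 2 without a fold limit (*cdc13* and *cut2*), 1 at an adjusted p below 0.1 (*slp1*), and 0 to 2 when an array was left out: 2 without DMSO replicate 1 (*plo1* and *cut2*), 1 without DMSO replicate 2 (*slp1*) and 1 without LatA replicate 1 (*cut2*). For the strain difference with LatA it became 1 without a fold limit (*cdc13*), and for the mean strain difference 2 (*cdc13* and *cut2*). For the mean LatA response the count of 1 (*slp1*) became 0 with each probe set's own variance, with array weights, at a fold change above 2 and at an adjusted p below 0.01, 5 without a fold limit, and 0 to 1 when an array was left out. Limma reported incomplete convergence for 5 of 7 fits with array weights.

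The same replicate numbers occur in each group, and whether they pair the samples is not known. Over all probe sets, same-numbered deviations correlated with r from -0.497 to 0.562, which cannot decide this. Between the strains with DMSO, r was 0.443 for replicate 1, 0.562 for replicate 2 and -0.497 for replicate 3. With the replicate number as a block the counts of called members stayed at 0 and, for the mean LatA response, at 1. The adjusted p of the wild-type LatA response rose from 0.0331 to 0.0657 for *cdc13* and from 0.0305 to 0.0668 for *cut2*, so that neither passed, and that of the strain difference with LatA went from 0.0387 to 0.05 for *cdc13* and from 0.248 to 0.047 for *cut2*, while over all probe sets the calls for the LatA response of *set3Δ* went from 176 to 0. The planned filter on low intensities and quantile normalization were not run, since the centring removed the levels they need.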
